A study of Homo sapiens with 8 samples.

Results

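HSC-3 is an established cell line from oral squamous cell carcinoma that the labels call radioresistant. The regions described here had a peak of open chromatin called in 2 of its libraries, named below, and in 0 of 4 libraries of KOSC-2. KOSC-2 is an oral squamous cell carcinoma line that the labels call radiosensitive. The assay was ATAC-seq, where a transposase (Tn5) cuts and tags DNA that nucleosomes leave free, and every library has a separate peak list on build hg19. Cells were grown in the same serum medium, received 8 Gy or 0 Gy of radiation and were frozen 24 hours later. There were 2 libraries each of HSC-3 at 8 Gy, HSC-3 at 0 Gy, KOSC-2 at 8 Gy and KOSC-2 at 0 Gy, 8 in all, and the labels do not say whether the 2 of a group came from separate cultures. The peaks of all 8 lists on chromosomes 1 to 22 were merged into 78629 regions. A region became a member when it had a peak in both long HSC-3 lists (8 Gy replicate 2 and 0 Gy replicate 1) and in 0 of 4 KOSC-2 lists, which left 2298 regions. Both long lists called 31029 regions, so that 7.41% of them were members. Members were thus chosen by the presence and absence of peaks in 6 of the 8 lists, which is a description, with no test.

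Open chromatin away from gene starts is mostly made of enhancers, insulators and other regulatory elements, and the set of such elements is known to differ more between cell types than the set of open promoters does. Squamous cell carcinomas arise from stratified epithelium, where enhancers bound by factors such as p63 and AP-1 set the keratinocyte programme. Lines of the same cancer type can share most promoters and still differ in many distal elements. No hg19 gene annotation or sequence was used here, so the distance of members to gene starts, the motifs in them and the markers of the labelled cell type were not analysed. Gene names below are background, from general knowledge of where genes lie on this build. They name a locus and not a target.

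The 2 long HSC-3 lists held 41874 peaks (8 Gy replicate 2) and 40842 peaks (0 Gy replicate 1) on chromosomes 1 to 22. The 2 short ones held 21955 (8 Gy replicate 1) and 22860 (0 Gy replicate 2), and the KOSC-2 lists held 37463 to 50448. Depth, read from the background under the peaks, was 20.7 and 27.0 reads per 10 kb in the long HSC-3 libraries of 8 and 0 Gy, 42.6 and 20.2 in the short ones of 8 and 0 Gy, and 24.3 to 64.8 in the KOSC-2 libraries. The smallest number of reads stacked at a called summit was 5 to 8 in HSC-3 and 6 to 9 in KOSC-2 lists. A region without a KOSC-2 peak is one where no peak was called in KOSC-2, which is not the same as closed. How far depth and list length set the membership was not tested.

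Members ranked lower in the long lists than the other regions of both lists. The authors' fold enrichment at the summit, relative to the background of the same library, had a median of 6.64 in the 8 Gy long list (quartiles 5.65 and 7.83) and 6.63 in the 0 Gy long list (quartiles 5.603 and 7.74). The other 28731 regions of both long lists had medians of 8.15 and 8.09 in the same libraries. Ranked within each list by −log10 p, members stood at a median percentile of 34.9 at 8 Gy and 32.3 at 0 Gy, against 64.2 and 63.5 for the other regions. The median of the members' mean percentile was 33.95 and depended on the rule, at 21.3 without the 8 Gy long list and 21.6 without the 0 Gy long list. It was 63.6 with every list cut to the same length and 65.7 with peaks above the 50th percentile of their list. Both cuts drop the weaker peaks of the long lists, so the higher values follow from the cuts themselves. A median of 15 reads at 8 Gy and 16 reads at 0 Gy was stacked at the summit of a member. Members were narrow as well, with a median merged width of 438 bp (quartiles 379 and 552 bp), against 751 bp for the other regions, which were merged from more lists. The summits of the 2 long lists lay a median of 43 bp apart in members and 35 bp apart in the other regions. They were within 100 bp of each other in 1826 members (79.5%) and in 82.9% of the other regions.

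The weakest member calls had a −log10 q of 2.14 at 8 Gy and 2.71 at 0 Gy, and 6.05% and 5.96% of the members were under 5 in these lists. Just outside the rule stood 1997 regions of both long lists with 1 KOSC-2 call. That call came from the KOSC-2 8 Gy libraries in 718 (replicate 1) and 215 (replicate 2) of them and from the 0 Gy libraries in 735 (replicate 1) and 329 (replicate 2). Also outside were regions with no KOSC-2 call and a call in 1 of the long lists, 4249 at 8 Gy and 3564 at 0 Gy, whose median −log10 q was 6.44 and 6.66, against 8.99 and 9.19 in members. Each long list is decisive for the rule, since without the 8 Gy one 5902 regions would meet it and without the 0 Gy one 6590.

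The strongest members were called in all 4 HSC-3 lists. Each fold below is the authors' value against its own library, so values are set side by side and a higher one does not show more open chromatin in that library. Calls in all 4 lists held for each of the 12 with the highest mean percentile over the long lists, and for 27 of the first 30. Of the other regions with a mean percentile above 50.8, the 8 Gy short list called 79.0% and the 0 Gy one 80.6%. No share was computed for other regions as strong as these 12 or 30. The leading member was chr14:78669180-78670159, 980 bp wide, at the locus of NRXN3, which encodes neurexin 3, an adhesion protein of synapses. Its fold enrichment was 11.4 and 13.4 in the 8 Gy libraries (replicates 1 and 2) and 12.8 and 12.4 in the 0 Gy libraries, and its percentile was 98.97 to 99.6 in the HSC-3 lists, with 59 to 107 reads at its summit. The doses overlapped at this region, and the nearest region with any KOSC-2 peak was 38.3 kb away.

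The second was chr13:112686374-112687260, near SOX1, a transcription factor of early neural development. It had a fold enrichment of 7.93 and 15.4 in the 8 Gy libraries and 11.5 and 9.14 in the 0 Gy libraries. At both doses the long list had the higher value, and the 8 Gy values enclosed the 0 Gy ones. The third, chr18:7038225-7038964, lies at LAMA1, the gene of the laminin alpha-1 chain of basement membranes. It had fold enrichments of 9.79 and 11.1 at 8 Gy and 13.2 and 11.5 at 0 Gy, where both 0 Gy values were above both 8 Gy values. It was also the strongest member further than 100 kb from any KOSC-2 peak, with 279 kb to the nearest KOSC-2 region.

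The fourth member, chr19:31745085-31745830, stands by TSHZ3, a zinc finger transcription factor of the teashirt family, and had fold enrichments of 8.79 and 13.6 at 8 Gy and 11.5 and 7.08 at 0 Gy. Chromosome 10 held the next pair. The region chr10:37668859-37669455 had fold enrichments of 14.04 and 15.2 at 8 Gy and 16.9 and 11.2 at 0 Gy, with 109 kb to the nearest KOSC-2 region. The region chr10:131791600-131792359, beside EBF3, a helix-loop-helix transcription factor of the EBF family, had 11.6 and 14.2 at 8 Gy and 15.5 and 11.3 at 0 Gy. In each of these 3 regions the ranges of the doses overlapped and the short list of each dose had the lower value.

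The remaining 6 of the strongest 12 were of similar height in the long lists. The region chr4:75579207-75579917, between the genes of the EGFR ligands amphiregulin (AREG) and betacellulin (BTC), had fold enrichments of 11.3 and 14.4 at 8 Gy and 11.75 and 9.24 at 0 Gy. A KOSC-2 region lay 4.83 kb from it. The region chr5:118774742-118775435, near HSD17B4, an enzyme of peroxisomal beta-oxidation, had 10.03 and 14.6 at 8 Gy and 13.01 and 8.16 at 0 Gy. On chromosome 9, the region chr9:92134143-92134864 between SEMA4D, a semaphorin, and GADD45G, a stress response gene, had 7.21 and 11.7 at 8 Gy and 11.7 and 10.2 at 0 Gy. The 2 doses overlapped in all 3.

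The last 3 were called in the short lists with more spread. The region chr11:134509776-134510385 had fold enrichments of 3.90 and 11.3 at 8 Gy and 10.7 and 9.06 at 0 Gy, and was at percentile 5.62 of the 8 Gy replicate 1 list. The region chr4:165142744-165143223, at MARCHF1, a membrane-bound ubiquitin ligase, had 8.34 and 15.1 at 8 Gy and 14.9 and 8.72 at 0 Gy. The region chr8:143305930-143306532, at TSNARE1, which encodes a SNARE domain protein, had 3.56 and 12.5 at 8 Gy and 10.1 and 8.99 at 0 Gy. In each of the 12 strongest regions the 8 Gy short list gave a lower fold than the 8 Gy long list and than the 0 Gy long list. The 12 were chosen by their ranks in the long lists, which favours higher values there.

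**Figure D1:**
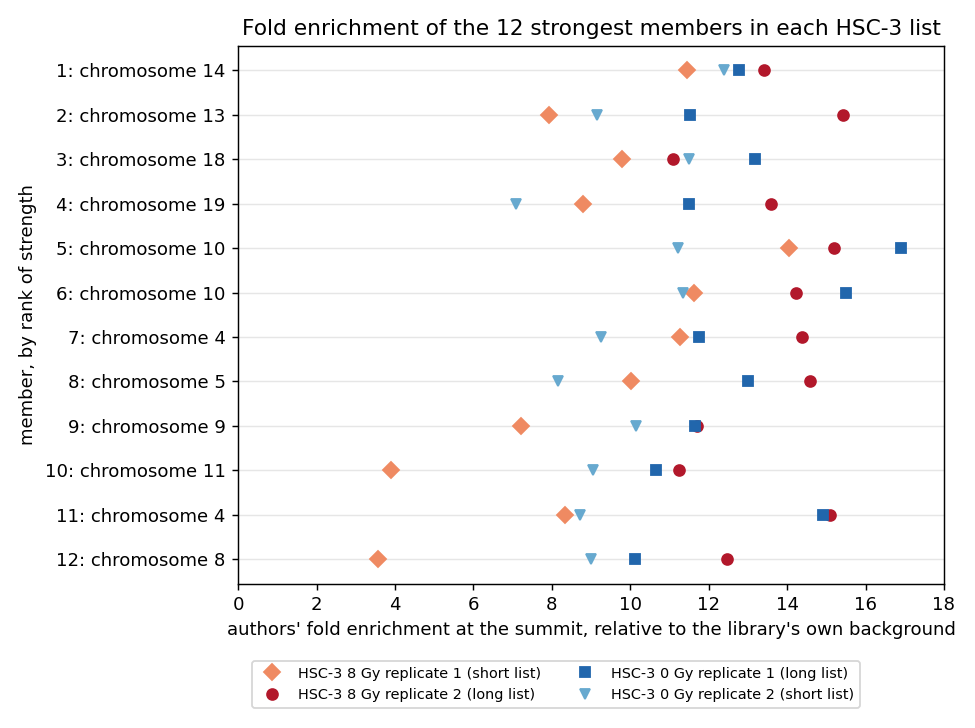
The authors' fold enrichment (x axis, linear, from 0) of the 12 strongest members (rows, strongest at the top) in the 4 HSC-3 lists, 1 point per library. All 12 have a value in all 4 lists, from 3.56 in an 8 Gy short list to 16.9 in the 0 Gy long list. In all 12 rows each short list is to the left of the long list of the same dose. The 12 were chosen by their ranks in the long lists, which favours higher values there.

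A call in a short HSC-3 list was not part of the rule, so these calls show how often the members recurred in the same line. The peaks of the short lists did enter the merging, and with either of them left out the members numbered 2300. Of the 2298 members, 811 (35.3%) were called in at least 1 short list, against 75.4% of the other regions of both long lists. In the 8 Gy short list 465 members were called (20.2%, exact 95% binomial interval 18.6 to 21.9%), against 60.7% of the other regions. In the 0 Gy short list 580 were called (25.2%, interval 23.5 to 27.1%), against 63.2%. Both short lists called 234 members (10.2%), against 48.5% of the other regions. These 234 were called in all 4 HSC-3 and in 0 of 4 KOSC-2 lists, and 1487 members (64.7%) in neither short list. With the rule resting on 1 long list alone, the 8 Gy short list called 10.1% of the members (without the 8 Gy long list) and 9.73% (without the 0 Gy one), and the 0 Gy short list 12.9% and 12.2%. Intervals cover counting error only, and with 1 short library per dose no test between doses could be made.

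Recurrence was higher at higher strength in both sets. With the members sorted by mean percentile into 5 strength classes of equal number, the 8 Gy short list called 6.74% of the weakest class, then 11.3%, 15.7%, 23.3% and 44.1% of the strongest. The other regions, placed in the same classes, gave 17.8%, 21.3%, 27.8%, 36.7% and 79.0%. In the 0 Gy short list the members gave 11.3%, 14.6%, 19.6%, 31.6% and 49.1%, and the other regions 19.6%, 25.4%, 31.0%, 42.1% and 80.6%. The share of members was lower in all 5 classes and in both lists. The classes were not matched on width, which had a median of 438 bp in members and 751 bp in the other regions. Whether width enters these shares was not tested. In the strongest class the other regions also stood higher (median mean percentile 75.9, against 60.0 for members), while in the 4 lower classes the medians of members and other regions differed by less than 1 percentile point.

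Over all strengths together, the share was higher with more KOSC-2 calls. Among regions of both long lists, the 8 Gy short list called 20.2% of those with 0 KOSC-2 calls (the members), 27.2% with 1, 31.2% with 2, 34.7% with 3 and 72.0% with 4. The 0 Gy short list called 25.2%, 32.7%, 37.7%, 39.2% and 73.4% in the same order. In the middle strength class, regions with 1 KOSC-2 call were called in 18.1% of cases in the 8 Gy short list and 22.6% in the 0 Gy one, against 15.7% and 19.6% of the members. The intervals of these overlap. In the same class the shares were 19.9% and 26.3% with 2 KOSC-2 calls, 21.8% and 24.3% with 3, and 35.8% and 38.0% with 4, where the largest step lay. In the second weakest class the 8 Gy short list called 16.9% with 1 call, 14.2% with 2 and 14.7% with 3, so within classes the order across 1 to 3 calls did not hold throughout.

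**Figure D2:**
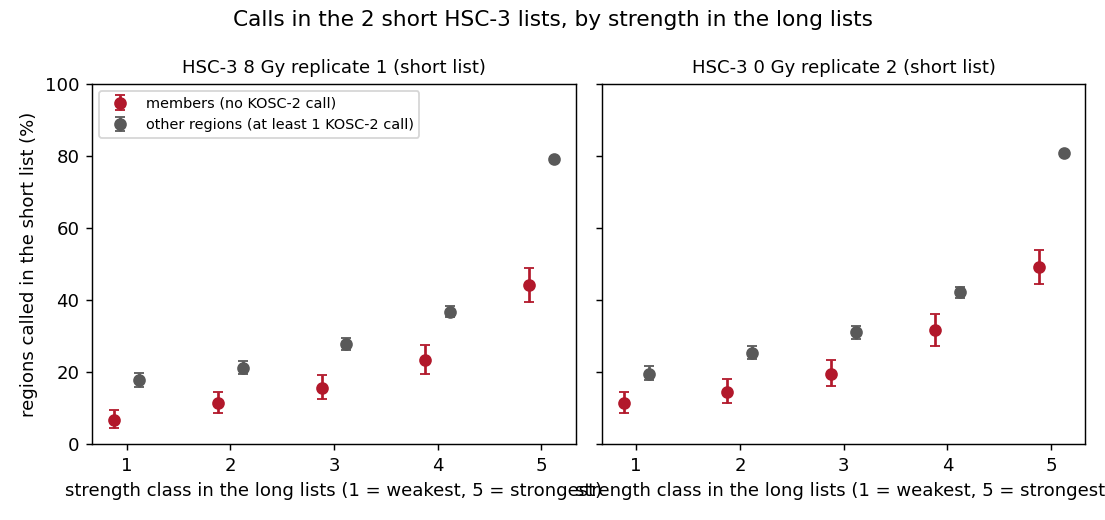
The percentage of regions called (y axis, 0 to 100) in the 8 Gy (left) and 0 Gy (right) short HSC-3 list, by strength class in the long lists (x axis, 1 weakest), for members and for the other regions of both long lists. Bars are exact 95% binomial intervals. Both sets climb with strength, and members sit below the other regions in all 5 classes, for example at 44.1% against 79.0% in the strongest class of the 8 Gy list.

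Dose was examined in the same way. In members the percentile was higher at 8 Gy than at 0 Gy by a median of 1.79 points between the long lists (quartiles -12.6 and 15.6), and in the other regions by 0.36 points (quartiles -9.26 and 10.6). The percentile was higher at 8 Gy by over 25 points in 344 members (15.0%) and higher at 0 Gy by over 25 points in 276 (12.01%). The other regions gave 9.83% and 8.87%. Across members the percentiles of the long lists had a Spearman correlation of 0.40 (n = 2298 regions that share both libraries), and across the other regions 0.78, where the range of strength is wider.

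The short libraries gave these shifts a second look. Of the 344 members that ranked higher at 8 Gy, the 8 Gy short list called 24.7% (exact 95% interval 20.2 to 29.6%) and the 0 Gy short list 33.4% (28.5 to 38.7%). Of the 276 that ranked higher at 0 Gy, the 8 Gy short list called 13.04% (9.31 to 17.6%) and the 0 Gy short list 21.4% (16.7 to 26.7%). The 0 Gy short list thus called more of both sets, as it did of all members (25.2% against 20.2%). The ratio of 8 Gy to 0 Gy short calls was 0.74 in the first set and 0.61 in the second. It was 0.85 in the 1678 members that moved by no more than 25 points. The ratio was thus higher in the set that ranked higher at 8 Gy than in the set higher at 0 Gy, and highest in the members that moved least. No interval was computed for the ratios. The short libraries also differ in depth (42.6 reads per 10 kb at 8 Gy and 20.2 at 0 Gy), so the order of the ratios cannot be read as an effect of dose or its absence. In the other regions the same ratios were 0.92, 0.82 and 0.97, in the same order as in members. There too the 0 Gy short list called more of both sets, with 43.8% (8 Gy list) and 47.6% (0 Gy list) of those higher at 8 Gy and 36.8% and 44.8% of those higher at 0 Gy. No effect of radiation on the members was tested, because each dose had 1 long and 1 short library.

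**Figure D3:**
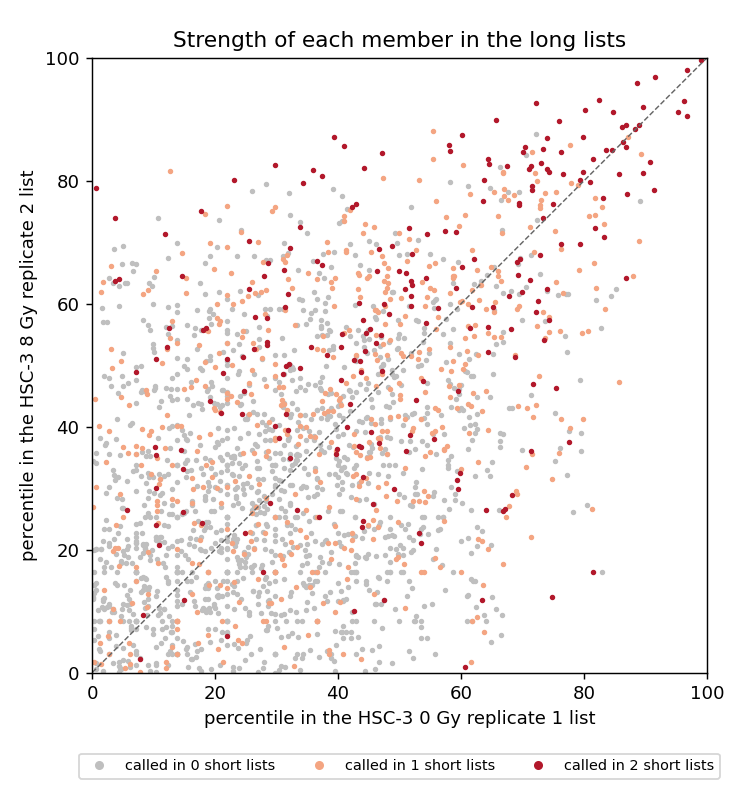
Each member's percentile by −log10 p within the 0 Gy long list (x axis) and within the 8 Gy long list (y axis), coloured by the number of short HSC-3 lists that called it. The dashed line marks equal percentiles. Members called in both short lists had a median mean percentile of 53.7, those in 1 short list 40.1 and those in none 29.3.

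Distances to regions called in all libraries were longer for members than for the other regions at the median. From a member to the closest region that all 8 libraries called, the median was 62.7 kb (quartiles 23.8 and 160 kb). For the other regions of both long lists it was 54.1 kb with 1 KOSC-2 call, 50.9 kb with 2, 44.7 kb with 3 and 41.5 kb with 4, leaving out those called in all 8. The quartiles overlap widely. The nearest region with any KOSC-2 peak was a median of 12.2 kb from a member (quartiles 4.85 and 29.1 kb). It was within 1 kb of 194 members (8.44%), further than 10 kb from 1283 members (55.8%) and further than 100 kb from 117 of them (5.09%). The other regions of both long lists are themselves KOSC-2 regions, so this distance has no counterpart in them.

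Chromosomes 4 and 5 carried the highest shares of members. On chromosome 4, 173 of 1503 regions of both long lists were members (11.5%, exact 95% interval 9.94 to 13.2%), and on chromosome 5, 227 of 2146 (10.6%, interval 9.31 to 11.96%), against 7.41% over all chromosomes. Chromosome 8 followed with 9.59%, chromosome 18 with 9.42% and chromosome 10 with 8.84%. The lowest shares were on chromosome 19 with 35 of 963 (3.63%, interval 2.54 to 5.02%) and chromosome 16 with 39 of 995 (3.92%, interval 2.80 to 5.32%). The intervals cover counting error only and take neighbouring regions of the same libraries as separate draws, so they are no test between chromosomes. In windows of 10 Mb with at least 50 regions of both long lists, the share ran from 0.613% to 26.8% over 253 windows, with a median of 7.02%. It was highest on chromosome 10 from 130 Mb (19 of 71 regions), on chromosome 5 from 100 Mb (17 of 75) and on chromosome 4 from 70 Mb (28 of 124), a window that holds the genes of amphiregulin and betacellulin.

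The local background differed between chromosomes and went with these shares in part. It was computed from fold and p at the summits of regions called in all 8 libraries, relative to the lowest level of the same library. This value was higher where peaks were stronger, with a median of 1.98 in members and 3.43 in the other regions (8 Gy long list). It is thus not separate from the peaks. It was 1.57 times as high in the long HSC-3 libraries as in the KOSC-2 libraries on chromosome 5. The ratio was 1.35 on chromosome 10, 1.31 on chromosome 4 and 1.27 on chromosome 8. The ratio was 0.87 on chromosome 16, but 1.16 on chromosome 19, which had the lowest share, and 1.19 on chromosome 14, with a share of 6.18%. Across 22 chromosomes that share the same libraries, the ratio and the share of members had a Pearson correlation of 0.59 and a Spearman correlation of 0.52. Chromosome 18 also went the other way, with a ratio of 0.89 and a high share. The part of the background in these shares was not tested.

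**Figure D4:**
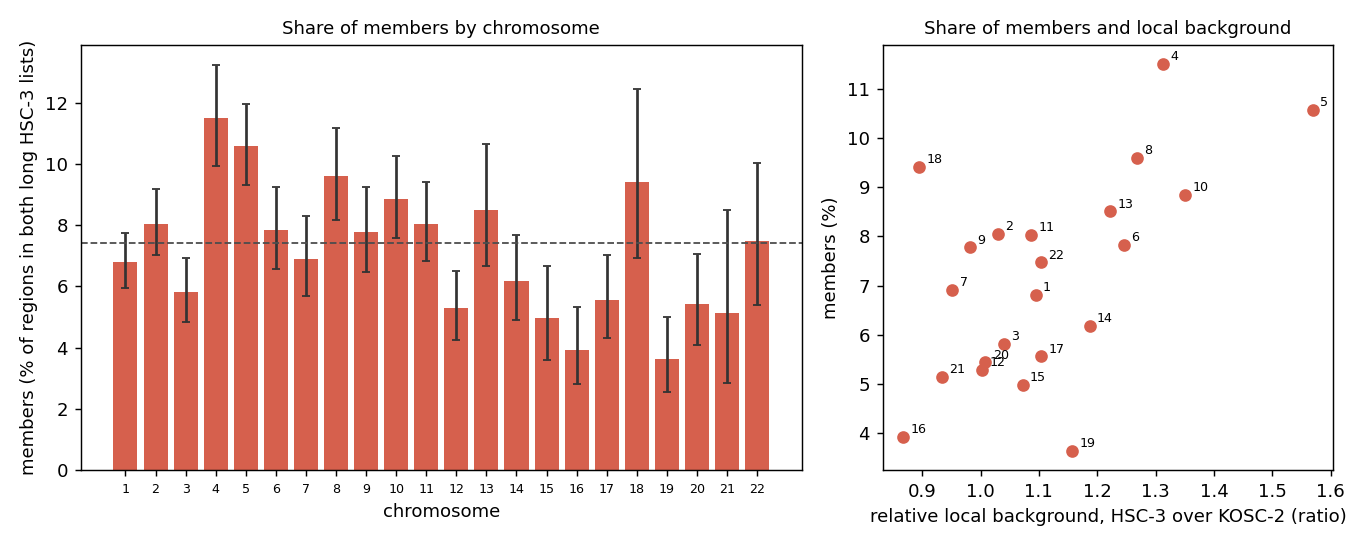
Left, members as a percentage of the regions called in both long HSC-3 lists on each chromosome, with exact 95% binomial intervals and a dashed line at 7.41% for all chromosomes. Right, the same percentage against the ratio of relative local background in HSC-3 over KOSC-2, with 1 numbered point per chromosome, where chromosome 5 is farthest right (1.57) and chromosome 18 stands above the others at its ratio (0.89).

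Most members had no other member within 50 kb. No comparison set was computed for this share, so it shows neither scatter nor grouping. When members no more than 50 kb apart were joined, 1838 (80.0%) stood alone and 201 clusters of 2 or more held the rest. Clusters of 3 or more numbered 37 and held 5.74% of the members. They numbered 57 without replicate 1 of KOSC-2 at 8 Gy, 66 without replicate 1 of KOSC-2 at 0 Gy, and 184 and 224 without the 8 Gy and the 0 Gy long HSC-3 list. They numbered 17 with every list cut to the same length, 15 with peaks above the 50th percentile, 7 with a short-list call required and 1 with both short lists required. The cluster with the most members, 8, spanned chr1:48324816-48509613, around TRABD2B, which encodes a metalloprotease that inactivates WNT ligands. Its members had a mean percentile of 50.3, and 4 of the 8 recurred in a short list, against 35.3% of all members. The 184.8 kb held 16 regions in all, and their calls numbered 3 and 13 in the 8 Gy libraries of HSC-3 (replicates 1 and 2), 14 and 7 in the 0 Gy libraries of HSC-3, 1 and 1 in the 8 Gy libraries of KOSC-2 and 3 and 0 in the 0 Gy libraries of KOSC-2. The 8 members account for 20 of the 37 HSC-3 calls and, by the rule, for none of the 5 KOSC-2 calls. The 8 regions that are not members had 17 HSC-3 calls and 5 KOSC-2 calls.

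The second cluster, of 6 members at chr18:6959085-7085057 in LAMA1, had 20 HSC-3 calls and 0 KOSC-2 calls in 8 regions. In this cluster and the next 2 most regions are members, whose KOSC-2 calls are 0 by the rule, and here the other 2 regions had 3 HSC-3 calls and 0 KOSC-2 calls. The HSC-3 calls were 6 and 7 in the 8 Gy libraries (replicates 1 and 2) and 6 and 1 in the 0 Gy libraries. The third, of 6 members at chr10:131761718-131843683 beside EBF3, had 20 HSC-3 and 2 KOSC-2 calls in 9 regions, of which the 3 that are not members had 6 and 2, and only the strongest of its members recurred in the short lists. The fourth, of 6 members at chr10:87686776-87755951 in GRID1, a glutamate receptor subunit of the delta type, had 17 HSC-3 and 0 KOSC-2 calls in 7 regions, of which 1 is not a member. The fifth, of 5 members at chr9:21710828-21833905 around the start of MTAP, an enzyme of methionine salvage, stood among regions shared by the lines, with 33 HSC-3 and 21 KOSC-2 calls in 13 regions. The 8 that are not members had 21 HSC-3 and 21 KOSC-2 calls.

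Some members lay in long stretches without any KOSC-2 peak. Taking the interval between the KOSC-2 regions on either side, 2065 intervals held members, 1888 of them a single one, and 11 held 4 or more. These intervals were ranked by their members after the values were seen. The first, chr18:5544251-7317683, was 1773 kb long and held 11 members among 22 regions, which had 47 HSC-3 calls and none from KOSC-2. Of these, HSC-3 had 12 and 13 in the 8 Gy libraries (replicates 1 and 2) and 16 and 6 in the 0 Gy libraries. It runs from EPB41L3, a membrane skeleton protein, past L3MBTL4 and ARHGAP28 and through LAMA1, and ends before PTPRM, a receptor phosphatase. HSC-3 had no calls either over the first 1108 kb, and all 22 regions lay in the remainder. Of the 11 members, 3 were called in all 4 HSC-3 lists and 7 in at least 1 short list. Over all members these shares were 10.2% and 35.3%, and over the other regions of both long lists 48.5% and 75.4%.

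The next interval, chr10:87403997-87938824, was 534.8 kb long and lay within GRID1. It held 9 members among 20 regions, which had 34 HSC-3 calls, 5 and 13 in the 8 Gy libraries and 13 and 3 in the 0 Gy libraries, and none from KOSC-2. Its members were weaker (mean percentile 37.5, best 66.9) than those on chromosome 18 (50.9, best 94.6). The third, chr17:13575554-13922881, between HS3ST3A1, a heparan sulfate sulfotransferase, and COX10, an assembly factor of cytochrome oxidase, held 5 members and no other region, with 14 HSC-3 calls.

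Others were on chromosomes 2, 19, 4 and 14. The interval chr4:18983223-20253276, which ends just before SLIT2, a secreted ligand of ROBO receptors in axon guidance, held 4 members among 5 regions over 1270 kb. All 4 recurred in a short list and 3 were called in all 4 HSC-3 lists. Over all members these shares were 35.3% and 10.2%, and over the other regions of both long lists 75.4% and 48.5%. The 5 regions had 3 and 5 calls in the 8 Gy libraries and 4 and 4 in the 0 Gy libraries. The interval chr19:31842010-32166033, upstream of TSHZ3, held 4 members among 7 regions with 17 HSC-3 calls, 3 and 4 at 8 Gy and 7 and 3 at 0 Gy, and its neighbour chr19:31145256-31644744 held 4 more among 10 regions. The interval chr2:122994462-124496128 was 1502 kb long and held 4 members among 11 regions. The interval chr14:98445104-98960865 held 4 members among 8 regions, and 1 of the 4 recurred in a short list. In each of these 5 intervals the KOSC-2 libraries had 0 calls, as the definition of the interval requires.

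**Figure D5:**
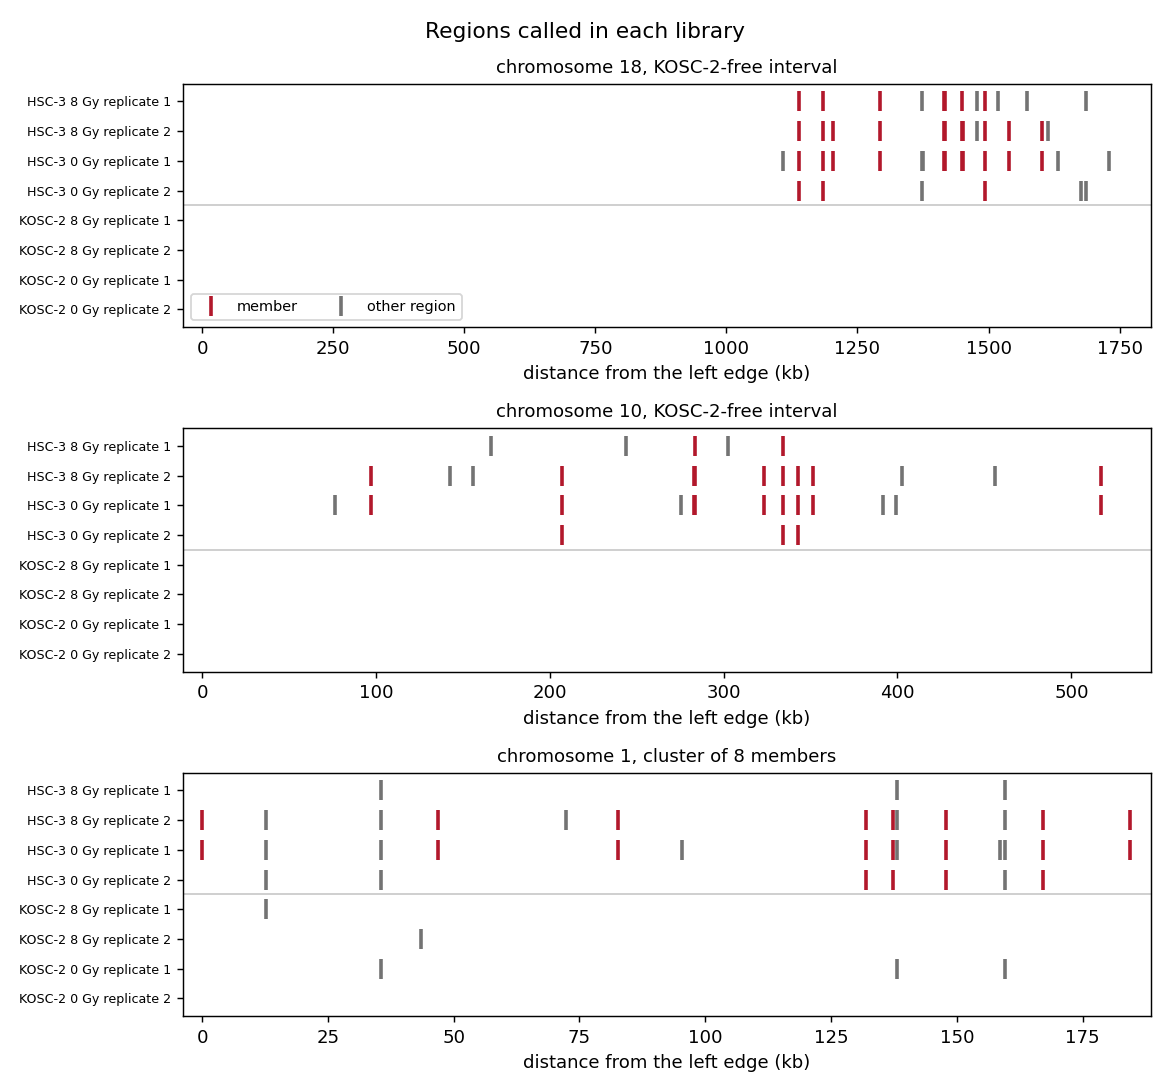
Regions called (ticks, members in red and other regions in grey) in each of the 8 libraries (rows, HSC-3 above KOSC-2) along the chromosome 18 interval of 1773 kb, the chromosome 10 interval of 534.8 kb and the chromosome 1 cluster of 184.8 kb, by distance from the left edge in kb. The upper 2 panels have 47 and 34 HSC-3 calls and no KOSC-2 call by their definition, and the lowest has 37 HSC-3 calls and 5 KOSC-2 calls.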

How the data were processed

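The members and every list named were chosen with earlier results of these data known. Per the submitters' processing notes, the tools were MACS2 2.2.6, Bowtie2 2.3.4.2, FastQC 0.11.7, deepTools and SAMtools 1.9 on build hg19, without stated roles or parameters. Duplicate handling and any Tn5 shift: not given in the sources used here. The authors deposited 1 peak list per library, with an integer score (10 times the −log10 q without its decimals), a ratio (fold enrichment at the summit), −log10 p-values, −log10 q-values and the summit's offset. These values are relative to 1 library, and were used to describe and rank peaks within a list.

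Peaks sharing at least 1 bp were merged. Stacked reads and background were computed from fold and p (Poisson tail, stacks up to 400, within 0.0001 of the deposited −log10 p for 100% of peaks); the lowest background, scaled from 300 bp fragments to 10 kb, measured depth. The percentile is the rank by −log10 p within a list, and a region takes the strongest peak of each list. Named were the 12 members of highest mean percentile over the long lists and the 5 clusters with most members; the choice of intervals and 10 Mb windows followed a look at their values. Alternatives were a −log10 q of at least 5, equal lists, at least 50% coverage, peaks above the 50th percentile, no KOSC-2 peak within 1 kb, chromosome X, required short-list calls and each library left out. Planned comparisons of promoters, gene lists, genes by number of members and motifs were not run, for lack of hg19 positions and sequence at hand; the 22 genes named at regions and intervals were each found on the stated chromosome of a RefSeq table of another build, whose coordinates were not used. On simulated lists the rule returned 1965 of 1965 planted members and 0 others. The computation ran in Python 3.11.15 with pandas 2.3.3, numpy 2.4.6, matplotlib 3.10.9 and scipy 1.17.1.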

Additional observations from a re-analysis of the deposited data

Results flagged for a closer look

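Chromosome X lay outside the rule, and 112 of its regions met the same criteria (a peak in both long HSC-3 lists and in 0 of 4 KOSC-2 lists). They were 12.8% of the 876 chromosome X regions called in both long lists (exact 95% binomial interval 10.6 to 15.2%), against 7.41% on chromosomes 1 to 22. Of the 112, 36 recurred in a short HSC-3 list, as did 35.3% of the members on chromosomes 1 to 22. What sets the share of 12.8% was not tested.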

How the results depend on the processing

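The count of 2298 members was 811 with a call in at least 1 short list required and 234 with both required. It was 1518 with every list cut to the same 21955 peaks and 1322 with peaks above the 50th percentile. These 2 cuts also remove KOSC-2 peaks, so a region with a weaker KOSC-2 peak can enter. In the full lists the upper quartile of the 2298 members was at percentile 52.6 at 8 Gy and 48.9 at 0 Gy, so most of the 1322 lie outside the 2298. The count was within 1.5 times of 2298 with a −log10 q of at least 5 (2224), at least 50% coverage (2445), no KOSC-2 peak within 1 kb (2104) and chromosome X added (2410). Leaving out 1 library gave 2300 to 6590 members, the 2 largest counts being those without a long HSC-3 list, where the rule rests on the other. Leaving out replicate 1 of KOSC-2 at 0 Gy together with both short lists, an alternative chosen after seeing the data, gave 3037. The share of members called in the 8 Gy short list (20.2%) was 52.4% with equal lists and 26.2% above the 50th percentile, and 9.73 to 24.5% with 1 library left out. That in the 0 Gy short list (25.2%) was 53.8%, 29.0% and 12.2 to 30.05% under the same settings, and 22.9% at 50% coverage. Making the lists equal shortens the long HSC-3 lists and the KOSC-2 lists and leaves the short HSC-3 ones nearly whole. The shares after either cut are thus of other sets of regions, some of which can have KOSC-2 peaks in the full lists. In the full lists, the short lists called 72.0% (8 Gy) and 73.4% (0 Gy) of the regions of both long lists with 4 KOSC-2 calls. No paired analysis was possible because the results come from no test between samples. Calls in the long lists had at least 5 stacked reads at 8 Gy and 6 at 0 Gy.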
